A study of Mus musculus with 4 samples.

Results

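The BMP and TGF-beta pathway genes described here were 50 genes picked by symbol and role from the 18702 genes listed in each library. They were picked with earlier results of these data known. They comprised 16 ligands, 11 receptors, 8 SMAD genes, 4 ID genes, 7 antagonists and 4 latent TGF-beta binding protein genes. All 50 were listed, and 47 reached the mean of 1 FPKM (fragments scaled by transcript length and by library size) needed to be tested. The ligand genes Gdf5 and Gdf15 and the SMAD gene Smad9 stayed below it.

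Ligands of this family bind pairs of type I and type II receptor kinases at the cell surface. BMP-type receptors phosphorylate SMAD1, SMAD5 and SMAD9, and TGF-beta and activin receptors phosphorylate SMAD2 and SMAD3. Both sets enter the nucleus with SMAD4. The inhibitory SMAD6 and SMAD7 and secreted antagonists restrain the pathway. ID genes are among its best known BMP targets, and some, not all, of the latent binding proteins hold TGF-beta in the matrix. In the mouse eye, BMP4 and BMP7 are needed for lens formation, BMP4 patterns the dorsal optic cup, and TGF-beta2 acts on the mesenchyme of the cornea and anterior segment.

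The libraries came from total RNA of eye tissue of C57BL/6 mouse embryos, 2 labelled as Anp32b-/- (KO) and 2 as Anp32b+/+ (WT). No treatment was named. The sources used here do not give the embryonic stage, the sex, the deleted part of the gene or how many embryos went into each library. Whether the 2 libraries of a genotype had separate embryos as their source is also not stated, so the p-values speak only of the spread between libraries, possibly a technical one. Depth, estimated from the spacing of low FPKM values, was about 17800000 and 17640000 fragments in KO replicates 1 and 2, and about 17860000 and 17640000 in WT replicates 1 and 2. At these depths 1 FPKM stood for 17.6 to 17.9 fragments per kilobase of transcript.

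Anp32b (GRCm38 chr4:46450902-46472657, plus strand) stood at 94.53 and 92.67 FPKM in the KO libraries, against 163.18 and 179.12 FPKM in the WT libraries, so the KO mean was 54.7% of the WT mean. Anp32b RNA was thus lower but not absent in the libraries labelled KO, and this level does not by itself establish a homozygous loss. The genotype rests on the labels, and KO below means the libraries so labelled. Pax6, named in the title of the series, stood at 107.76 and 110.97 FPKM in KO, against 160.94 and 158.43 FPKM in WT. Of 13887 genes tested, 4654 were higher and 2932 lower in KO (61.3% of calls higher). With the deposited TPM values 80.6% of calls were higher, and with FPKM rescaled without crystallin and red blood cell genes 44.9% were. The median log2 fold change of all genes tested was 0.04 with FPKM and 0.16 with TPM, and the values of single genes below are to be read against these medians. The tissue label fitted its markers, since crystallin, retinal and pigment genes were present in all 4 libraries, but the mix differed. All 16 crystallin genes were lower in KO (summed level 6097 and 6145 FPKM in KO, 69496 and 69694 FPKM in WT), and 13 of 15 neural retina genes were lower (681 and 691 FPKM in KO, 874 in each WT library). Collagen and periocular mesenchyme genes were all higher, 14 of 14 (3758 and 3781 FPKM in KO, 1748 and 1715 FPKM in WT), as were all 14 skeletal muscle genes (3250 and 3306 FPKM in KO, 1553 and 1648 FPKM in WT).

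As a group, the pathway genes were more often higher than lower in the KO eyes. The threshold was a limma adjusted p under 0.05, adjusted over all genes tested. Of the 47 tested members 28 were higher, where 33.5% of all genes were, and 4 were lower, where 21.1% of all genes were. That is 59.6% and 8.51% of the tested members. The other 15 did not pass. Together 54.6% of all genes were called. The members' median log2 fold change, KO over WT on the log2(FPKM + 1) scale used throughout, was 0.24, against 0.04 for all genes. With a change of at least 0.3 on that scale, 22 members were higher (20.2% of all genes) and 3 lower (9.94% of all genes). In 32 tested members both KO values lay above both WT values, in 9 both lay below, and in 6 they overlapped, where 45.6% of all genes lay above, 32.4% below and 77.9% in either direction without overlap. With FPKM rescaled without crystallin and red blood cell genes, 25 members were higher and 9 lower, where 25.4% of all genes were higher and 31.2% lower. In bulk tissue, fewer cells of a type and less RNA per cell cannot be told apart. The spread within groups was small, with a median coefficient of variation of 2.26% in KO and 2.37% in WT over the tested members.

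**Figure D1:**
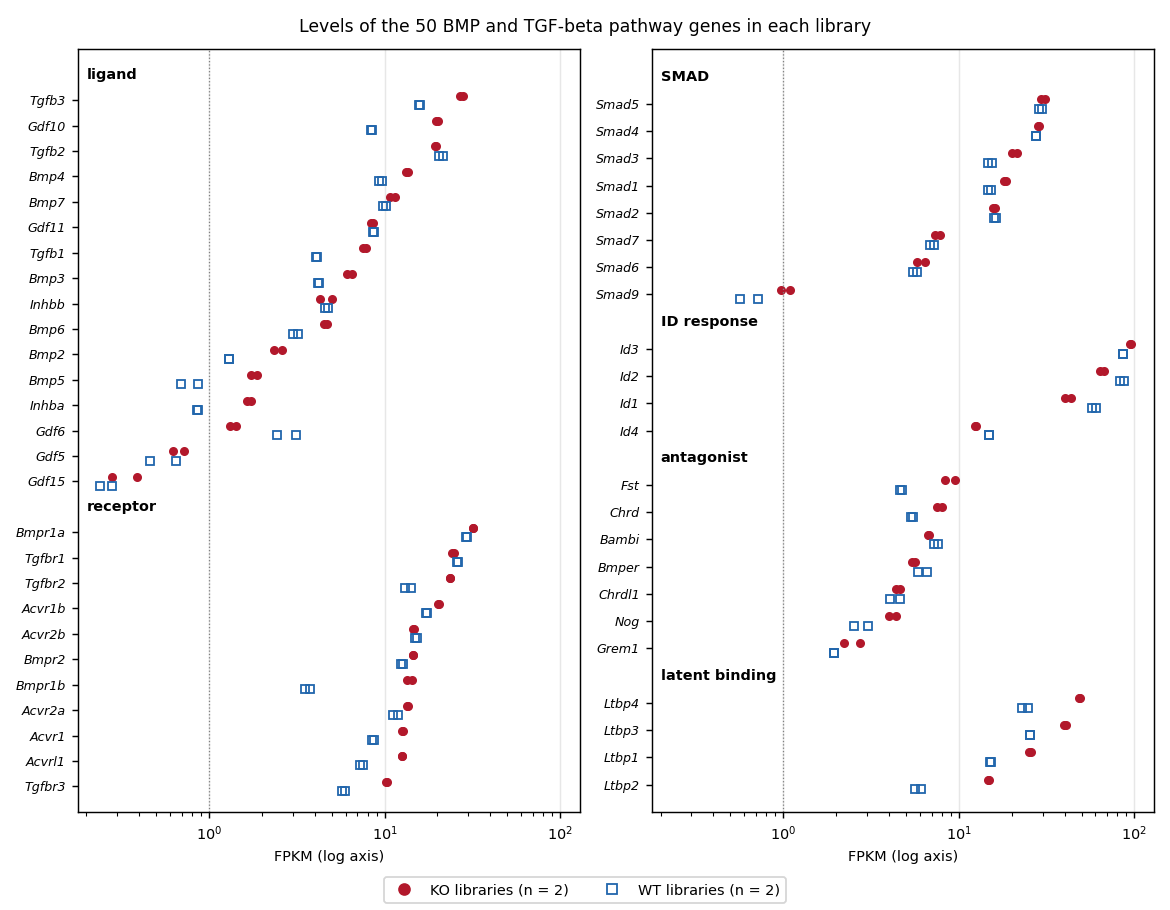
FPKM of the 50 genes in each library on a log axis, by role and in order of the KO mean, with KO libraries as filled circles and WT libraries as open squares below them; the dotted line marks 1 FPKM. Id3 had the highest level of all, at 94.72 and 95.63 FPKM in KO and 85.70 and 86.07 FPKM in WT, and Gdf15 the lowest, at 0.28 and 0.39 FPKM in KO and 0.28 and 0.24 FPKM in WT.

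Among ligands of the BMP class, 4 of 5 were higher in KO eyes, where 33.5% of all genes were. Bmp4, the ligand of the dorsal optic cup, had 13.21 and 13.64 FPKM in KO, against 9.72 and 9.30 FPKM in WT. Both KO libraries were above both WT libraries, a 1.41-fold difference of means (log2 fold change 0.46, SE 0.05, limma adjusted p = 0.00024). Bmp2 had 2.61 and 2.33 FPKM in KO and 1.30 FPKM in each WT library (log2 fold change 0.59). Bmp5 was low in both groups, at 1.74 and 1.87 FPKM in KO and 0.69 and 0.87 FPKM in WT (0.66). Bmp6 had 4.71 and 4.49 FPKM in KO and 3.20 and 2.99 FPKM in WT (0.45). For each of these ligands both KO values lay above both WT values, which also held for 45.6% of all genes. Bmp7, which is needed with Bmp4 for the mouse lens, had 11.51 and 10.68 FPKM in KO and 10.18 and 9.78 FPKM in WT. Its groups did not overlap either, but the change of 0.14 (95% confidence interval 0.01 to 0.27) was not past the threshold (limma adjusted p = 0.064), though it was called with TPM and with the replicate number as a block. Bmp3, which is unlike the others in opposing BMP signalling in bone, had 6.08 and 6.49 FPKM in KO and 4.21 and 4.16 FPKM in WT (0.49).

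The growth and differentiation factor genes went in opposite directions. Gdf10 (chr14:33923587-33937983, plus strand), also called Bmp3b, showed the largest change of any tested ligand here, with 19.73 and 20.21 FPKM in KO and 8.44 and 8.39 FPKM in WT. The KO libraries were 2.37-fold higher and the replicates of each group lay close together (log2 fold change 1.16, SE 0.04, limma adjusted p = 2.7e-06). Gdf6 (chr4:9844372-9862345, plus strand), a BMP ligand of the dorsal eye in several vertebrates, had 1.31 and 1.43 FPKM in KO and 3.11 and 2.45 FPKM in WT. It was the only tested ligand here that was called lower, with a KO mean 49.3% of the WT mean (log2 fold change −0.67, SE 0.11, limma adjusted p = 0.0018), and its WT libraries differed more from each other than its KO libraries did. Gdf11, which limits the production of ganglion cells in the mouse retina, had 8.40 and 8.58 FPKM in KO and 8.54 and 8.73 FPKM in WT. Its groups overlapped, and the confidence interval of the change ran from −0.14 to 0.09. Gdf5, a ligand of joints, had 0.72 and 0.62 FPKM in KO and 0.65 and 0.46 FPKM in WT. Gdf15, a stress-induced ligand, stayed under 0.4 FPKM in every library.

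Of the TGF-beta ligands, Tgfb1 and Tgfb3 were higher in KO eyes and Tgfb2 was not. Tgfb3 had 27.77 and 26.95 FPKM in KO, against 15.78 and 15.83 FPKM in WT. This was a 1.73-fold difference, with no overlap (log2 fold change 0.75, SE 0.04, limma adjusted p = 8.7e-06). Tgfb1, the ligand most studied in wound healing and immunity, had 7.49 and 7.82 FPKM in KO and 4.14 and 4.04 FPKM in WT, a 1.87-fold difference (0.77, SE 0.06, limma adjusted p = 5.6e-05). In the same libraries 10 of 10 macrophage genes were higher, and of 12 surface epithelium genes 11 were higher and 1 lower. Their part in the Tgfb1 difference was not tested. Tgfb2, the isoform whose loss disturbs the mouse cornea and lens, had 19.46 and 19.67 FPKM in KO and 20.47 and 21.61 FPKM in WT. Both KO values were slightly below both WT values, and the change of −0.10 was not past the threshold (limma adjusted p = 0.079). It was called lower under both rescalings of FPKM and was 0.02 with TPM. Tgfb2 had the highest level of the tested ligands in WT, and Tgfb3 had it in KO. Tgfb3 overlaps Ttll5 on the opposite strand, and the sources used here do not say if strand was used in assigning reads. The same holds for Bmp6, which overlaps Txndc5.

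The activin genes were at low to moderate levels. Inhba, which encodes the activin A subunit, had 1.64 and 1.74 FPKM in KO and 0.87 and 0.85 FPKM in WT (log2 fold change 0.53, limma adjusted p = 0.0026). Inhbb, the activin B subunit, had 4.99 and 4.28 FPKM in KO and 4.57 and 4.73 FPKM in WT, with both WT values between the KO values. Inha, the inhibin alpha subunit that pairs with either to form an activin inhibitor, had 17.08 and 18.35 FPKM in KO and 13.97 and 14.37 FPKM in WT (0.30).

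**Figure D2:**
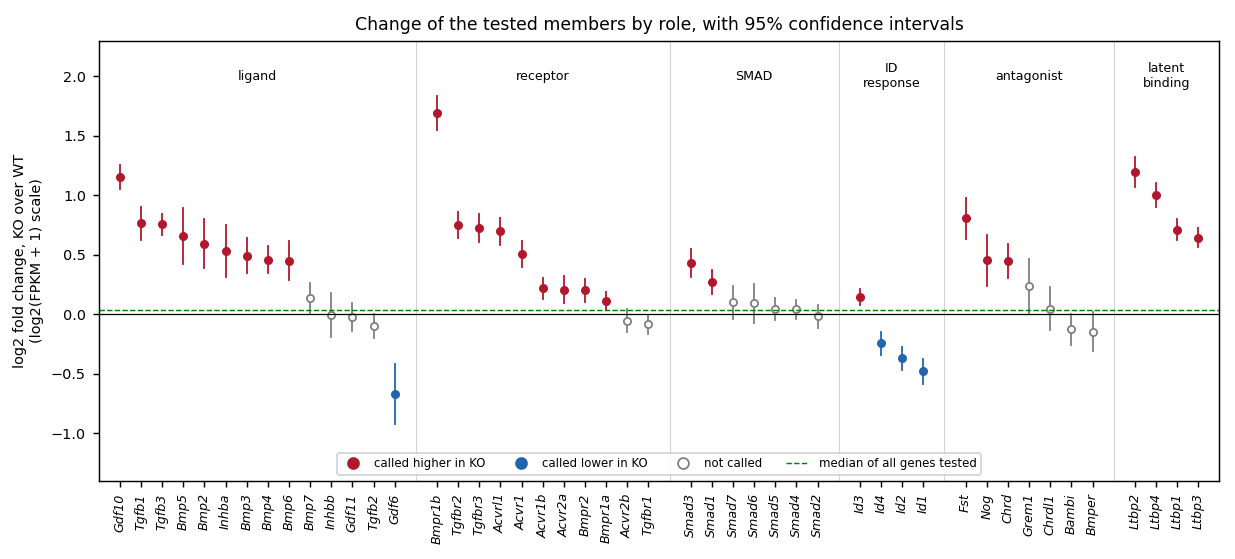
Log2 fold change, KO over WT on the log2(FPKM + 1) scale, of the 47 tested genes by role, with 95% confidence intervals from limma; filled red points were called higher, filled blue points lower, and open points were not called, and the dashed line is the median of all genes tested (0.04). Bmpr1b is the highest point at 1.69, all 4 latent binding protein genes lie between 0.64 and 1.20, and Gdf6 is the lowest point at −0.67.

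Receptor genes were higher in KO eyes in 9 of 11 cases, where 33.5% of all genes were. None was called lower with FPKM as deposited, but Tgfbr1 and Acvr2b were with FPKM rescaled without crystallin and red blood cell genes. Bmpr1b (chr3:141837136-142169425, minus strand), a type I BMP receptor known for its role in cartilage and, in the mouse retina, in ventral ganglion cell axons, had 13.46 and 14.41 FPKM in KO, against 3.75 and 3.51 FPKM in WT. Both KO libraries were more than 10 FPKM and both WT libraries under 5 FPKM, a 3.84-fold difference and the largest change of the tested members (log2 fold change 1.69, SE 0.06, limma adjusted p = 2.4e-06). Bmpr1a (chr14:34410734-34503341, minus strand), the other type I receptor of this pair, had 31.81 and 31.77 FPKM in KO and 29.51 and 29.11 FPKM in WT. Its change was 0.11, and that call was lost without any 1 of the 4 libraries in turn and under both rescalings of FPKM. Per length, Bmpr1b stood at 0.42 and 0.45 of the Bmpr1a level in KO and at 0.13 and 0.12 of it in WT. Genes of bone, 9 of 9 tested, were higher in the same libraries (summed level 177 and 180 FPKM in KO, 23.5 and 22.5 FPKM in WT, with no marker at 0 in all libraries). Of 7 cartilage genes tested, 5 were higher and 2 lower, where 33.5% and 21.1% of all genes were. Their summed level was 199 and 203 FPKM in KO and 194 and 192 FPKM in WT. The part of bone or cartilage genes in the Bmpr1b difference was not tested.

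The 250 bases upstream of the start are shown for this receptor pair because it holds the largest and the smallest called change among the receptors. Sequences are from RefSeq on GRCm38.p6, and 34 of the 50 members matched that table. Bmpr1b has 3 starts there, of which the most upstream is shown (chr3:141982265-141982514 on the minus strand), and the Bmpr1a window is chr14:34502547-34502796 on the minus strand. The starts are those of RefSeq, and GENCODE extends these genes further upstream, so both windows lie inside the gene spans given above. For Bmpr1b the shown start may therefore not be the most upstream one in other annotations. Capitals mark GGCGCC, a GC-rich core bound by SMADs in BMP response elements, and CAGAC or its reverse complement GTCTG, the core of SMAD3 and SMAD4 sites, searched on both strands with no overlap between the motifs shown.
Bmpr1b: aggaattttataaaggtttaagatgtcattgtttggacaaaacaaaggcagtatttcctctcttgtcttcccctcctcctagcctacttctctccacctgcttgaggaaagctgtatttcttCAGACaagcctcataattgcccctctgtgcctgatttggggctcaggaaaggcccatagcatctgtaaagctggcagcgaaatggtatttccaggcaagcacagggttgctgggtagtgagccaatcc
Bmpr1a: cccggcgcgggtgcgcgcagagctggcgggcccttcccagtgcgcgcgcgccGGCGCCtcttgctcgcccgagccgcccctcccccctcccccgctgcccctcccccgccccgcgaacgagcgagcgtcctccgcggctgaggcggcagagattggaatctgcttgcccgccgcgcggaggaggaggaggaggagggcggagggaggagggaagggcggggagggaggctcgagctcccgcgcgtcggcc
The Bmpr1a window held 1 match to the GC-rich motif and none to the CAGA motif, and the Bmpr1b window none to the GC-rich motif and 1 to the CAGA motif. The GC-rich motif was in 9.59% of all 32851 windows of this length and in 25.6% of the 43 member windows, and the CAGA motif in 42.2% of all windows and in 44.2% of member windows. The windows were not matched for base composition, and a match is only a run of letters.

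The other BMP and activin receptor genes changed less than Bmpr1b. Acvr1, a type I receptor for BMPs, had 12.69 and 12.64 FPKM in KO and 8.73 and 8.48 FPKM in WT (log2 fold change 0.51, SE 0.05, limma adjusted p = 0.00012). Acvrl1, the type I receptor of endothelial cells, had 12.57 and 12.61 FPKM in KO and 7.52 and 7.24 FPKM in WT, a 1.71-fold difference (0.70, SE 0.05, limma adjusted p = 3.4e-05). Both receptors had tight replicates and no overlap. Eng, which encodes endoglin, the endothelial co-receptor that works with the Acvrl1 product, had 18.25 and 18.84 FPKM in KO and 11.06 and 10.20 FPKM in WT (0.75). Of 10 endothelial markers, a list that includes Eng, 8 were higher and Kdr lower (summed level 193 and 191 FPKM in KO, 152 and 148 FPKM in WT), and their part in these differences was not tested. Bmpr2, the main type II BMP receptor, had 14.59 FPKM in each KO library and 12.38 and 12.77 FPKM in WT (0.20). The activin type II receptor gene Acvr2a had 13.37 and 13.64 FPKM in KO and 11.92 and 11.23 FPKM in WT (0.21). That call was lost without KO replicate 1, KO replicate 2 or WT replicate 2, and with FPKM rescaled without crystallin and red blood cell genes. The gene overlaps Orc4 on the other strand. Acvr2b, its paralog, had 14.71 and 14.48 FPKM in KO and 15.39 and 14.98 FPKM in WT, with a confidence interval of −0.15 to 0.04, and was called lower under that rescaling and 0.06 with TPM. The activin type I receptor gene Acvr1b had 20.33 and 20.21 FPKM in KO and 17.18 and 17.42 FPKM in WT (0.22).

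Of the 3 Tgfbr genes, Tgfbr2 and Tgfbr3 were higher in KO eyes and Tgfbr1 was not. This was no split by receptor type, since 5 of 6 type I and 3 of 4 type II receptor genes were higher. Of all genes 33.5% were higher. Tgfbr2, the type II receptor that binds the ligand, had 23.63 and 23.44 FPKM in KO and 13.08 and 14.09 FPKM in WT. This 1.73-fold difference left no overlap (log2 fold change 0.75, SE 0.05, limma adjusted p = 2.1e-05). Tgfbr3, the co-receptor betaglycan that presents TGF-beta2, had 10.31 and 10.22 FPKM in KO and 5.91 and 5.72 FPKM in WT (0.73, SE 0.05, limma adjusted p = 3.9e-05). Tgfbr1, the type I receptor kinase that carries the signal to SMAD2 and SMAD3, had 24.72 and 24.32 FPKM in KO and 26.19 and 25.95 FPKM in WT. Both KO values were below both WT values, but the change of −0.09 (confidence interval −0.17 to −0.0033) was not past the threshold (limma adjusted p = 0.074). It was called lower under both rescalings of FPKM and was 0.03 with TPM. The level of Tgfbr2 was thus 0.96 of that of Tgfbr1 in each KO library, and 0.50 and 0.54 of it in the WT libraries.

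**Figure D3:**
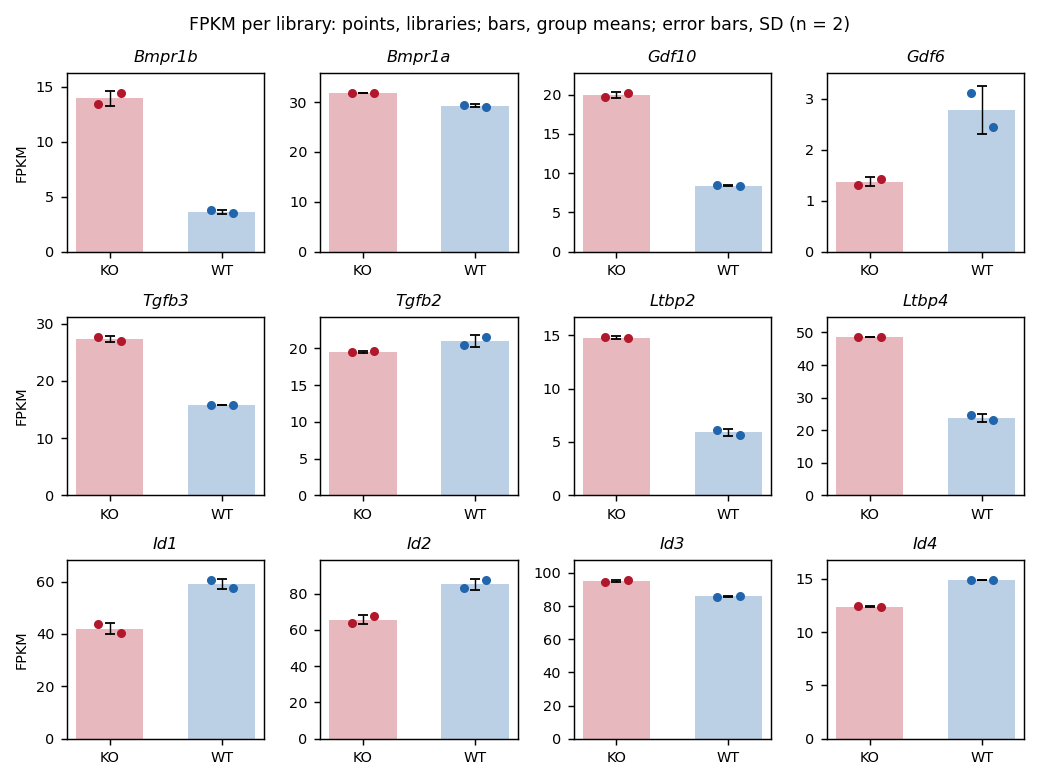
FPKM of 12 genes in KO (left) and WT (right), with points for libraries, bars for group means from 0 and error bars for SD (n = 2). Bmpr1b, Gdf10, Tgfb3, Ltbp2 and Ltbp4 lie well above WT in both KO libraries, Bmpr1a and Tgfb2 differ by little, and Id1, Id2, Id4 and Gdf6 lie below WT.

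SMAD genes had the smallest median change of the 6 roles. Of 7 tested, 2 were higher, or 28.6% against 33.5% of all genes, and none was lower. Their median log2 fold change was 0.09. Smad3, a carrier of TGF-beta and activin signals, had 21.36 and 20.04 FPKM in KO and 15.53 and 14.67 FPKM in WT, with no overlap (log2 fold change 0.43, SE 0.05, limma adjusted p = 0.00036). Its partner Smad2 had 15.72 and 16.07 FPKM in KO and 15.84 and 16.38 FPKM in WT. These overlapped, with a confidence interval of −0.12 to 0.08. Smad1, a carrier of BMP signals, had 17.99 and 18.62 FPKM in KO and 15.32 and 14.74 FPKM in WT (0.27, SE 0.04, limma adjusted p = 0.0017). Smad5, with the same role, had 30.93 and 29.48 FPKM in KO and 29.73 and 28.80 FPKM in WT. One KO value lay between the WT values, and the interval of the change was −0.05 to 0.14. Smad4, the common partner, had 28.73 and 28.26 FPKM in KO and 27.68 and 27.63 FPKM in WT (interval −0.04 to 0.12). The inhibitory Smad6 had 6.41 and 5.76 FPKM in KO and 5.81 and 5.48 FPKM in WT, and the inhibitory Smad7 had 7.85 and 7.29 FPKM in KO and 6.82 and 7.18 FPKM in WT. Neither of these genes, themselves induced by the pathway, passed the threshold, with changes of 0.09 and 0.10. With TPM, Smad4, Smad5, Smad6 and Smad7 were called higher, where 49.9% of all genes were. Smad9, the third BMP carrier and below the level tested, had 0.97 and 1.09 FPKM in KO and 0.57 and 0.72 FPKM in WT.

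The ID genes, whose products bind basic helix-loop-helix factors and keep them off DNA, were the group in which most members were lower. Of all genes 21.1% were lower. Id1 (chr2:152736251-152737410, plus strand) had 43.65 and 40.46 FPKM in KO and 60.53 and 57.65 FPKM in WT. Both KO values were below both WT values, and the KO mean was 71.2% of the WT mean (log2 fold change −0.48, SE 0.05, limma adjusted p = 0.00015). Id2 (chr12:25093799-25097140, minus strand) had 63.80 and 67.56 FPKM in KO and 83.09 and 87.40 FPKM in WT (−0.37, SE 0.04, limma adjusted p = 0.00029). Id4 (chr13:48261228-48266026, plus strand) had 12.45 and 12.33 FPKM in KO and 14.87 FPKM in each WT library (−0.25, SE 0.04, limma adjusted p = 0.0022). These falls kept their direction and their calls in every alternative run, except that Id4 is below the fold change threshold of 0.3. Id3 (chr4:136143497-136145755, plus strand) went the other way, with 94.72 and 95.63 FPKM in KO and 85.70 and 86.07 FPKM in WT (0.15, SE 0.03, limma adjusted p = 0.0038), a call that was lost with FPKM rescaled without crystallin and red blood cell genes. The level of Id1 was 0.46 and 0.42 of that of Id3 in KO, against 0.71 and 0.67 of it in WT. Neural retina markers, 13 of 15 lower, fell in the same libraries as Id1, Id2 and Id4, and their part in these falls was not tested.

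The upstream windows of the ID genes are shown because these genes of a single family moved in opposite directions. Capitals mark the same motifs as above. The windows are chr12:25096093-25096342 on the minus strand, chr4:136143572-136143821 on the plus strand and chr13:48260866-48261115 on the plus strand. Those of Id2 and Id3 lie inside the GENCODE spans and that of Id4 does not. Id1 had no window among the RefSeq sequences used here and is named only.
Id2: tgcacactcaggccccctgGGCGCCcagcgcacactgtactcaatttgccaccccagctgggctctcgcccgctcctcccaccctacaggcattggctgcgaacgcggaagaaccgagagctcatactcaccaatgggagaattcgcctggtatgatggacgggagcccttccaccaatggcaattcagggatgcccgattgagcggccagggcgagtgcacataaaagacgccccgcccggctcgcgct
Id3: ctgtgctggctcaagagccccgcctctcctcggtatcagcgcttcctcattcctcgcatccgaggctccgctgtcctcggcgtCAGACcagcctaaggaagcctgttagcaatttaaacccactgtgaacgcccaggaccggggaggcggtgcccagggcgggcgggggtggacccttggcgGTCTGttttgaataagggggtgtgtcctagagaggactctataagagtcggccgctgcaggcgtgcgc
Id4: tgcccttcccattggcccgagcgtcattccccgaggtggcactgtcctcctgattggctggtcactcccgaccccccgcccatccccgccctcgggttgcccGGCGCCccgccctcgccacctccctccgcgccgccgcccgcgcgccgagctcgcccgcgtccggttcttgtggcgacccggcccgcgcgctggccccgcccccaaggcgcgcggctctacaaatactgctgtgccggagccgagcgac
The windows of Id2 and Id4, both lower in KO, held 1 GC-rich motif each, at 231 and 148 bases before the start, and no CAGA motif. The window of Id3, higher in KO, held no GC-rich motif and 2 CAGA motifs, at 167 and 68 bases before the start. With 3 windows this is a description of the letters only, and a link between motif and direction of change was not tested.

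Antagonist genes were higher in 3 of 7 cases, or 42.9% against 33.5% of all genes, and none was called lower with FPKM as deposited. Fst, which encodes follistatin, an activin-binding protein, had 9.53 and 8.34 FPKM in KO and 4.74 and 4.61 FPKM in WT. This 1.91-fold difference left no overlap (log2 fold change 0.81, SE 0.07, limma adjusted p = 0.00011). Chrd, for the BMP-binding protein chordin, had 8.06 and 7.47 FPKM in KO and 5.36 and 5.51 FPKM in WT (0.45, SE 0.06, limma adjusted p = 0.00081). It overlaps Thpo on the opposite strand. Nog, for the BMP-binding protein noggin, had 4.0 and 4.36 FPKM in KO and 2.52 and 3.05 FPKM in WT (0.46, SE 0.09, limma adjusted p = 0.0048), a call lost without KO replicate 2. The BMP antagonist gene Grem1 had 2.21 and 2.73 FPKM in KO and 1.94 FPKM in each WT library, and was not past the threshold (limma adjusted p = 0.078), but was called higher with TPM and without KO replicate 1. Chrdl1, or ventroptin, an antagonist of BMP4 in the chick retina, had 4.38 and 4.63 FPKM in KO and 4.61 and 4.06 FPKM in WT, with overlap. Bambi, a pseudoreceptor without a kinase, had 6.73 and 6.69 FPKM in KO and 7.20 and 7.63 FPKM in WT. Bmper, which binds BMPs outside the cell, had 5.62 and 5.39 FPKM in KO and 6.58 and 5.86 FPKM in WT. Bambi and Bmper were below WT in both KO libraries but not past the threshold (limma adjusted p = 0.094 and 0.11), and both were called lower with FPKM rescaled without crystallin and red blood cell genes, Bambi also with median-of-ratios scaling. The summed level of the 6 secreted antagonists was 1.00 of that of the 5 BMP ligands in each KO library and 1.03 of it in each WT library.

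All 4 latent TGF-beta binding protein genes were higher in KO eyes, the sole role in which every member was called higher. Of all genes 33.5% were higher. Ltbp2 (chr12:84783212-84876532, minus strand), known in people for mutations that cause congenital glaucoma and lens dislocation, had 14.89 and 14.72 FPKM in KO and 6.12 and 5.66 FPKM in WT. It was 2.51-fold higher (log2 fold change 1.20, SE 0.05, limma adjusted p = 5.5e-06). Ltbp4 (chr7:27305136-27337692, minus strand), a partner of elastic fibres, had 48.73 and 48.63 FPKM in KO and 24.72 and 22.96 FPKM in WT, a 2.04-fold difference (1.00, SE 0.04, limma adjusted p = 4.3e-06). Ltbp1, the main carrier of latent TGF-beta, had 25.15 and 25.74 FPKM in KO and 15.09 and 15.23 FPKM in WT (0.71, SE 0.04, limma adjusted p = 1.1e-05). Ltbp3 had 39.93 and 40.55 FPKM in KO and 25.38 and 25.37 FPKM in WT (0.64, SE 0.03, limma adjusted p = 9.3e-06). No KO value of any of the 4 genes overlapped with WT, and 45.6% of all genes likewise had both KO values above both WT values. The summed level of the 4 genes was 129 and 130 FPKM in KO and 71.3 and 69.2 FPKM in WT. The 14 genes of the mesenchyme list, all higher in the same libraries, had a median of 1.13, against a median of 0.86 for the latent binding protein genes. The part of the mesenchyme genes in this difference was not tested.

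Genes of the wider pathway outside the 50 were listed by role, and 70 of 93 listed in the libraries were tested. Of these 45 were higher and 8 lower, or 64.3% and 11.4%, against 33.5% and 21.1% of all genes. Their median log2 fold change was 0.34, against 0.04 for all genes, and the counts of the lists below are to be read against the same shares. In the list for storage and release of TGF-beta in the matrix, 13 of 15 were higher and none lower (median 0.66). Dcn, for the proteoglycan decorin that binds TGF-beta, had 374 and 384 FPKM in KO and 178 and 182 FPKM in WT (1.07, limma adjusted p = 9.4e-07). Emilin1, an elastic fibre protein that limits TGF-beta processing, had 40.83 and 39.17 FPKM in KO and 18.91 and 19.15 FPKM in WT (1.03), and the proteoglycan gene Bgn changed by 0.99. The fibrillin genes Fbn1 (0.72) and Fbn2 (0.67), whose fibres anchor latent binding proteins, were also higher. Dcn is itself on the mesenchyme list.

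Among other secreted modulators 11 of 15 were higher and 3 lower. Sostdc1, a BMP and Wnt antagonist, had 19.00 and 18.96 FPKM in KO and 10.62 and 9.88 FPKM in WT (0.83). Bmp1, a protease that cleaves procollagen and chordin and is not a BMP ligand, had 54.78 and 55.52 FPKM in KO and 33.31 and 32.50 FPKM in WT (0.73). Crim1, a membrane protein that binds BMPs and is known from mouse lens epithelium and fibres, had 14.08 and 13.51 FPKM in KO and 34.68 and 33.93 FPKM in WT. It had the largest fall among the tested pathway genes, with a KO mean 40.2% of the WT mean (−1.25, SE 0.04, limma adjusted p = 1.5e-06), in the libraries in which all 16 crystallins were lower, and their part in it was not tested. The other 2 that were lower were Dand5 (−0.37) and Wfikkn2 (−0.33). The Dand5 call was lost without KO replicate 1, WT replicate 1 or WT replicate 2, and with no filter on low values. Of 6 other receptors and co-receptors 5 were higher. Rgma, a BMP co-receptor also known for guidance of retinal axons in the chick, had 10.24 and 10.11 FPKM in KO and 6.09 and 6.22 FPKM in WT (0.64). Hjv, a co-receptor of liver and skeletal muscle, had 16.25 and 15.72 FPKM in KO and 8.67 and 8.73 FPKM in WT (0.81), where all 14 skeletal muscle genes were higher too, without a test of their part in it. Of the 3 other ligands tested, Inha and Gdf1 were higher. Gdf1 had 7.32 and 7.63 FPKM in KO and 6.45 and 5.75 FPKM in WT (0.26). Its call was lost without KO replicate 1, KO replicate 2 or WT replicate 2, and with FPKM rescaled without crystallin and red blood cell genes. Its transcript is shared with Cers1 in the mouse, so its value is uncertain. Of 16 intracellular modulators 7 were higher and 2 lower, or 43.8% and 12.5%, with a median of 0.06. Zfyve16 (0.47), which brings SMADs to endosomes, and the SMAD corepressor genes Ski (0.34) and Tgif1 (0.31) had the largest changes.

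Response genes of the BMP side went both ways, while those of the TGF-beta side were higher or not called with FPKM as deposited. The BMP list, which holds 7 of the 50 members, had 2 higher and 6 lower of 14 tested. Apart from the members, 7 were tested, with 1 higher and 3 lower. Tbx3, a T-box gene of the dorsal optic cup under BMP control, had 5.65 and 5.41 FPKM in KO and 12.14 and 11.91 FPKM in WT. Its KO mean was 46.0% of the WT mean (−0.996, SE 0.05, limma adjusted p = 1.0e-05). Tbx2, with a like pattern in the mouse eye, had 31.04 and 31.53 FPKM in KO and 51.89 and 51.80 FPKM in WT (−0.71, SE 0.03, limma adjusted p = 5.1e-06). Tbx5, also dorsal, was below the level tested, at 0.17 and 0.34 FPKM in KO and 0.80 and 1.10 FPKM in WT. Msx1, the homeobox target of BMPs in many tissues, had 1.42 and 1.47 FPKM in KO and 2.03 and 2.06 FPKM in WT (−0.32, SE 0.08, limma adjusted p = 0.016), a call lost without any 1 of the 4 libraries in turn. In each of these genes both KO values were below both WT values, which also held for 32.4% of all genes tested. Neural retina markers, 13 of 15, were lower in the same libraries, and their part in these falls was not tested. Hey1 (0.07), Dlx3 (0.08) and Atoh8 (0.04) were tested and not called. The gene called higher was Dlx5, a homeobox gene induced by BMPs in osteoblasts. It had 2.29 and 2.35 FPKM in KO and 0.09 and 0.20 FPKM in WT (1.54, limma adjusted p = 3.3e-05), in the libraries in which bone genes were higher.

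Of 12 TGF-beta response genes 7 were higher, or 58.3% against 33.5% of all genes, and none was called lower with FPKM as deposited. Col1a1 had 715 and 713 FPKM in KO and 322 and 318 FPKM in WT (log2 fold change 1.16). Postn, for the matrix protein periostin, had 430 and 435 FPKM in KO and 199 and 192 FPKM in WT (1.14). Col3a1 changed by 1.11 and Ccn2, the connective tissue growth factor gene, by 0.81, with 32.28 and 32.55 FPKM in KO and 18.18 and 18.03 FPKM in WT. The collagens and Postn are also on the mesenchyme list. The direct SMAD targets Skil (25.11 and 24.65 FPKM in KO, 25.41 and 25.64 FPKM in WT), Pmepa1 (39.06 and 39.67 FPKM in KO, 40.15 and 41.02 FPKM in WT) and Smad7 were not called. Skil and Pmepa1 were called lower with FPKM rescaled without crystallin and red blood cell genes and had positive values with TPM.

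**Figure D4:**
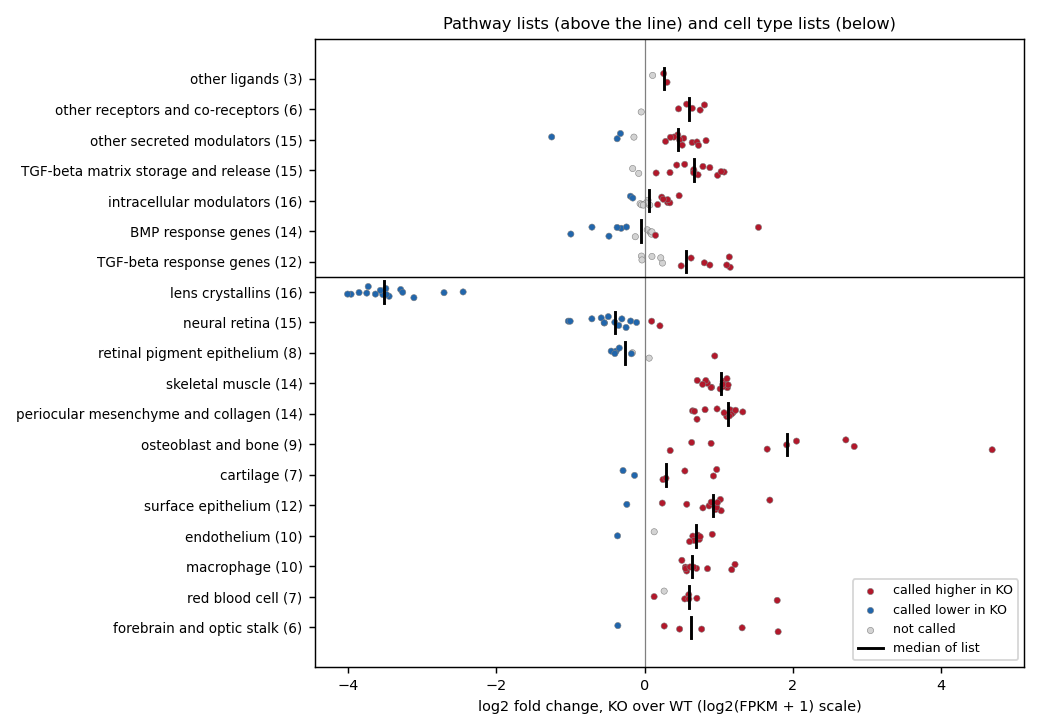
Log2 fold change, KO over WT on the log2(FPKM + 1) scale, of the tested genes of 7 lists of the wider pathway (above the line) and 12 lists of cell type markers (below it), with the number tested in brackets, a black bar at the median of each list and red, blue and grey points for genes called higher, called lower and not called. Storage and release of TGF-beta (median 0.66) lies to the right, BMP response genes (median −0.05) spread to both sides, and the crystallins (median −3.51) lie far to the left.

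The size of small changes depended on how libraries were scaled. The 4 members that were lower stayed lower and called in every alternative in which they were tested, the fold change threshold aside, and so did 24 of the 28 higher members. The other 4 were Bmpr1a, Acvr2a, Id3 and Nog. Under TPM 34 members were higher and 4 lower, where 49.9% of all genes were higher and 12% lower.

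**Figure D5:**
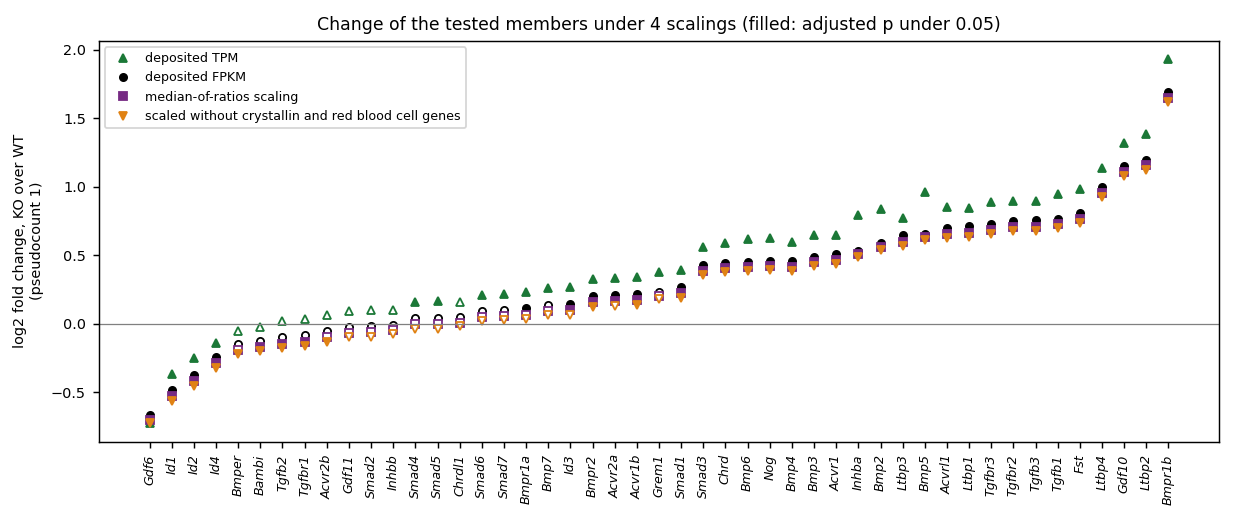
Log2 fold change, KO over WT with a pseudocount of 1, of the 47 tested genes in order of the FPKM value, under deposited TPM (green triangles), deposited FPKM (black circles), median-of-ratios scaling (purple squares) and FPKM scaled without crystallin and red blood cell genes (orange triangles); filled symbols had a limma adjusted p under 0.05. Genes from Smad3 to Bmpr1b, all above 0.35 in each scaling, keep their calls, while the genes from Tgfb2 to Chrdl1 change sign between scalings.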

How the data were processed

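RNA from the eye tissue of embryos was sequenced as 4 libraries, 2 Anp32b knockout and 2 wild type, grouped by the labels. The authors deposited FPKM values (fragments scaled by transcript length and library size) for each library, per the file headers, and TPM values, which the authors' tables give as the same numbers rescaled to a common sum. Tools listed in the submitters' processing notes are Cufflinks, DESeq, HISAT2 and TopHat, beside GRCm38 and GRCh38, without roles. The sources used here do not give the annotation, the use of strand or the tool behind the values. FPKM divides by all fragments, so a fall in abundant transcripts raises the values of the others.

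The 18702 genes were joined by Entrez number, and 26 symbols shown as dates were restored from RefSeq. The 13887 genes averaging 1 FPKM or more were tested on log2(FPKM + 1) with limma-trend (limma 3.58.1, R 4.3.3), with genotype as the only term, two-sided, and Benjamini-Hochberg adjustment over all genes tested. Genes with an adjusted p under 0.05 were called. Residual degrees of freedom were 2, and prior ones 4.89. The fit was also run on simulated data with normal noise and few changed genes. Far more genes were called here, so that run does not bear on these calls. The spacing of low FPKM values placed the depth between 17640000 and 17860000 fragments per library, but only 55.2% to 65.0% of those values lay within 0.15 of a whole number of fragments, so no counts were recovered and no count test was run.

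The members, the gene lists and the tests were chosen with earlier results of these data known. All members could be named. Of each other pathway list, the rule named up to 3 genes with the largest called change, and others were chosen after their values were seen. Positions come from GENCODE M21 (GRCm38) and upstream sequences from RefSeq (GRCm38.p6). Alternatives were a pseudocount of 0.1 FPKM, no filter, a filter of 5 FPKM reached in 2 or more libraries, a block for the replicate number, TPM, 2 rescalings of FPKM, a log2 fold change of at least 0.3, and the omission of each library.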

Additional observations from a re-analysis of the deposited data

How the results depend on the processing

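The count of called members was 32, stayed between 26 and 38 under the other filters, scalings, pseudocount and block, and was 25 with a log2 fold change of at least 0.3. The 26 came from the filter of 5 FPKM, under which 38 members were tested and 6229 of 10875 genes were called. The 38 came from TPM, under which 8593 of 13887 genes were called. That threshold left 4188 called genes of all tested, against 7586, since it adds a condition. With the replicate number as a block 33 members and 7828 genes were called. The block changed 1 member's call, that of Bmp7, and no source used here says that the numbers pair the libraries. Deviations of same-numbered libraries from their group means had a correlation of 0.04 across genes. Leaving out 1 library gave changes of 1.643 to 1.735 for Bmpr1b and of −0.535 to −0.428 for Id1. Changes of sign occurred in genes that were not called. With TPM these were Gdf11 (0.091), Tgfb2 (0.017), Inhbb (0.10), Tgfbr1 (0.032), Acvr2b (0.062) and Smad2 (0.10), and outside the members Skil (0.083) and Pmepa1 (0.076). Median-of-ratios scaling gave Smad4 −0.0042 and Smad5 −0.0020, and scaling without crystallin and red blood cell genes gave Smad4 −0.037, Smad5 −0.035 and Chrdl1 −0.020. Without 1 library Inhbb ran from −0.098 to 0.084, Smad2 from −0.041 to 0.0046 and Chrdl1 from −0.028 to 0.12. Apart from the scaling itself, the cause was not tested. The 4 libraries limit what small changes can be shown.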

Other observations

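The balance between close relatives differed within the libraries themselves, where scaling has no part. Tgfb3 stood at 1.43 and 1.37 of the Tgfb2 level in KO, against 0.77 and 0.73 of it in WT. Tgfb1 stood at 0.38 and 0.40 of Tgfb2 in KO and at 0.20 and 0.19 of it in WT. Ltbp4 was 1.22 and 1.20 of Ltbp3 in KO and 0.97 and 0.91 of it in WT, and Bmp4 was 1.15 and 1.28 of Bmp7 in KO and 0.95 of it in each WT library. Id2 was 0.67 and 0.71 of Id3 in KO, against 0.97 and 1.02 of it in WT. The summed level of the latent binding protein genes was 2.35 and 2.38 of that of the 3 TGF-beta ligands in KO and 1.77 and 1.67 of it in WT. Set against the summed level of the 14 genes of periocular mesenchyme and collagen, it was 0.0343 in each KO library and 0.0408 and 0.0404 in the WT libraries. These ratios were chosen after the values were seen and were not tested.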
